A study of Mus musculus with 12 samples.

Results

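The 9 genes described here encode Janus kinases and the STAT transcription factors that these kinases phosphorylate: Jak1, Jak2, Tyk2, Stat2, Stat3, Stat4, Stat5a, Stat5b and Stat6. They were taken by name from the 40840 genes listed for each library, with earlier results of these data known. All 9 were measured above the lowest listed value in each of the 12 libraries. Total RNA was sequenced from the immune cell fraction of the liver of male mice, which the sample labels call hepatic macrophages. Mice were 8 to 10 weeks old when the diets began and were fed for 12 weeks. The 4 groups of 3 mice each were C57BL/6 wild type on normal chow diet (WT-NCD), the same wild type on high-fat diet (WT-HFD), and B6.129S4(D2)-Casp4tm1Yuan/J mice on the same diets (Casp11-/- NCD and Casp11-/- HFD). The methods give the wild-type background as C57BL/6J. The Casp11-/- mice carry their disrupted allele in every cell, and the labels and methods do not say whether WT mice were littermates. A Percoll step was used to separate off hepatocytes and lysis to remove erythrocytes, with no sorting of single cell types. Each library therefore holds RNA of several immune and non-immune cells, and hepatocyte transcripts remained, as given below. In such bulk samples, fewer cells of a type and less RNA per cell cannot be told apart.

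Cytokine receptors of this pathway have no kinase of their own and bind Janus kinases on their inner side. When a cytokine brings receptor chains together, the kinases phosphorylate each other and the receptor, STAT proteins dock there and are phosphorylated, and STAT dimers enter the nucleus and bind DNA. Jak1 serves the interferon, interleukin-6 family and common gamma chain receptors, Jak2 serves receptors of growth hormone, leptin and the GM-CSF family as well as interferon-gamma, and Tyk2 serves type I interferon, interleukin-12 and interleukin-23. In the liver, the pathway carries the acute phase response and growth hormone signals in hepatocytes and the interferon and interleukin signals of resident and infiltrating immune cells.

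Members of the family are similar enough in sequence for short reads to be shared, and some lie side by side, which bears on what each value counts. In the GENCODE vM21 annotation of GRCm38, Stat5b (chr11:100780731-100850724, minus strand), Stat5a (chr11:100859351-100885169, plus strand) and Stat3 (chr11:100885098-100939540, minus strand) form 1 cluster. Stat5a and Stat3 run tail to tail and share 72 exonic bases, and 8626 bases separate Stat5b from Stat5a. Stat6 (chr10:127642986-127660957) and Stat2 (chr10:128270559-128292849) both lie on the plus strand of chromosome 10, 609601 bases apart. The other genes are Stat4 (chr1:51987148-52107189, plus strand), Jak1 (chr4:101152367-101265282, minus strand), Jak2 (chr19:29251828-29313080, plus strand) and Tyk2 (chr9:21104068-21131243, minus strand). The coding sequences of Stat5a (2379 bases) and Stat5b (2358 bases) were identical at 2125 of 2343 aligned positions (90.7%), with 1 unbroken identical run of 324 bases. Reads of 75 bases were sequenced, and 5.12% of the 75-base windows in Stat5a transcripts and 6.99% of those in Stat5b transcripts occurred in the other gene as well. The most divergent stretch of both coding sequences is printed to show where reads do tell them apart. It covers bases 88 to 177 counted from the start codon of transcripts ENSMUST00000107356.7 and ENSMUST00000107358.8, and capitals mark the 28 positions that differ:
Stat5a: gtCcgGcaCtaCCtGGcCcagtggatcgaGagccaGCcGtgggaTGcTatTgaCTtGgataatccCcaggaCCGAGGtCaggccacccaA
Stat5b: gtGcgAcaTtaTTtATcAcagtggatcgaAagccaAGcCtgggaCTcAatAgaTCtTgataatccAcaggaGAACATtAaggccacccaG
A second stretch of 150 bases, from base 820 to base 969 of both, spans the end of the identical run and holds 1 difference, in capitals:
Stat5a: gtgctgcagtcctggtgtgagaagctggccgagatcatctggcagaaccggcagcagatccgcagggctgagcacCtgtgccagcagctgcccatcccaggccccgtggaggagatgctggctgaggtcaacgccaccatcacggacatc
Stat5b: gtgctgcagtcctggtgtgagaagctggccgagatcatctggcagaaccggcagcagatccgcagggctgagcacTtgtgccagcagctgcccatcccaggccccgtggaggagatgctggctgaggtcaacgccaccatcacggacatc
How the authors' software assigned reads from such shared runs is not given in the sources used here, and neither is whether reads were counted by strand. Stat5a and Stat5b are therefore uncertain as separate values in proportion to these shared windows, and the Stat3 and Stat5a ends in proportion to their 72 shared bases. In Stat4 transcripts, 19.5% of the windows occurred also in an overlapping annotated locus, Gm28177, which was not analysed here. In Stat2 transcripts 0.113% of the windows occurred in another gene, and the other members had none.

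STAT dimers bind the palindrome TTCNNNGAA, known as the GAS element, and the interferon complex that holds Stat2 and Irf9 binds the interferon-stimulated response element, searched here as GAAANNGAAA. Both strands of RefSeq promoter windows of GRCm38.p6 were searched, from 250 bases before to 50 bases after each annotated start. The 9 genes had 12 such windows. The GAS letters occurred in 8.298% of all 32851 windows and in 0 of these 12. The response element letters occurred in 3.443% of all windows and in 2 of the 12, 1 of Stat2 and 1 of Stat4. They are printed in capitals within 60 bases of the plus strand, the strand of both genes, at chr10:128270251-128270310 (222 to 213 bases before the Stat2 start) and chr1:52008118-52008177 (97 to 88 bases before the second annotated Stat4 start):
Stat2: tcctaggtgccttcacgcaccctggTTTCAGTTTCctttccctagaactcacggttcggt
Stat4: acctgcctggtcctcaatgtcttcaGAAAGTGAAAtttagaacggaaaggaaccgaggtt
The levels of Stat2 and Stat4 had a correlation of 0.65 over 11 libraries, the lowest among the pairs of Tyk2, Stat2, Stat4, Stat5a, Stat5b and Stat6 given below.

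Values are TPM, the reads of a transcript divided by its length and scaled to a fixed total per library, so they can be compared between genes. The lowest listed value was 1.01 TPM in every library. Read numbers are not given, so the depth behind a value is unknown. WT-NCD replicate 3 stood apart: 39677 genes lay above the lowest value, against 12940 to 18775 in the other 11 libraries, and the 9 genes were at 1.22 to 4.15 TPM. Counts of calls and the members' differences are therefore given with this library and without it. The U3 small nucleolar RNAs held 25.8% to 58.5% of TPM in the 6 HFD libraries and 0.0309% to 4.84% in the 6 NCD libraries, and the signal recognition particle RNA 7SL held 52.8% in Casp11-/- NCD replicate 2. Because TPM sums to a fixed total, tests were repeated after the protein-coding genes of each library had been rescaled to a common total. Casp4, the gene that encodes caspase-11, was listed at 12.1, 15.6 and 8.94 TPM in WT-NCD, 7.09, 5.60 and 11.4 in WT-HFD, 4.93, 2.56 and 15.2 in Casp11-/- NCD and 2.78, 8.68 and 4.73 in Casp11-/- HFD. The genotypes overlapped, and a value for the whole gene does not say whether reads lie in the disrupted part, so it does not check the labels. In addition, the value column of Casp11-/- HFD replicate 2 is headed C1-HFD-M2, a name that does not spell out the genotype.

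Jak1 was the most abundant of the 9 transcripts in each of the 11 libraries without WT-NCD replicate 3, with a geometric mean of 86.7 TPM, and lay above the next gene, Stat6, by 1.29 ± 0.46 on the log2 scale (SD, n = 11). Its values were 119, 115 and 2.20 TPM in WT-NCD, 74.8, 39.4 and 102 in WT-HFD, 108, 64.8 and 127 in Casp11-/- NCD and 60.0, 87.4 and 108 in Casp11-/- HFD. The libraries of the 4 groups overlapped throughout. Stat6, the factor of interleukin-4 and interleukin-13, and Stat3, the factor of the interleukin-6 family and interleukin-10, followed at 35.5 and 32.6 TPM. Stat6 was the higher in 9 of 11 libraries, by 0.12 ± 0.26, so this pair did not differ beyond its spread. Stat3 lay 1.06 above Stat5b on the log2 scale and above it in 11 of 11 libraries. Below this step came Stat5b at 15.7, Jak2 at 15.4, Stat2, the interferon factor, at 14.8 and Tyk2 at 13.1 TPM, and their order changed from library to library: Stat5b exceeded Jak2 in 4 of 11, Jak2 exceeded Stat2 in 8 and Stat2 exceeded Tyk2 in 7. Tyk2 exceeded Stat4, the factor of interleukin-12 in NK cells and T cells, in 11 of 11 libraries, by 0.44 ± 0.25. Stat4 at 9.63 TPM and Stat5a at 8.30 TPM were the lowest, with Stat4 above in 7 of 11.

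**Figure D1:**
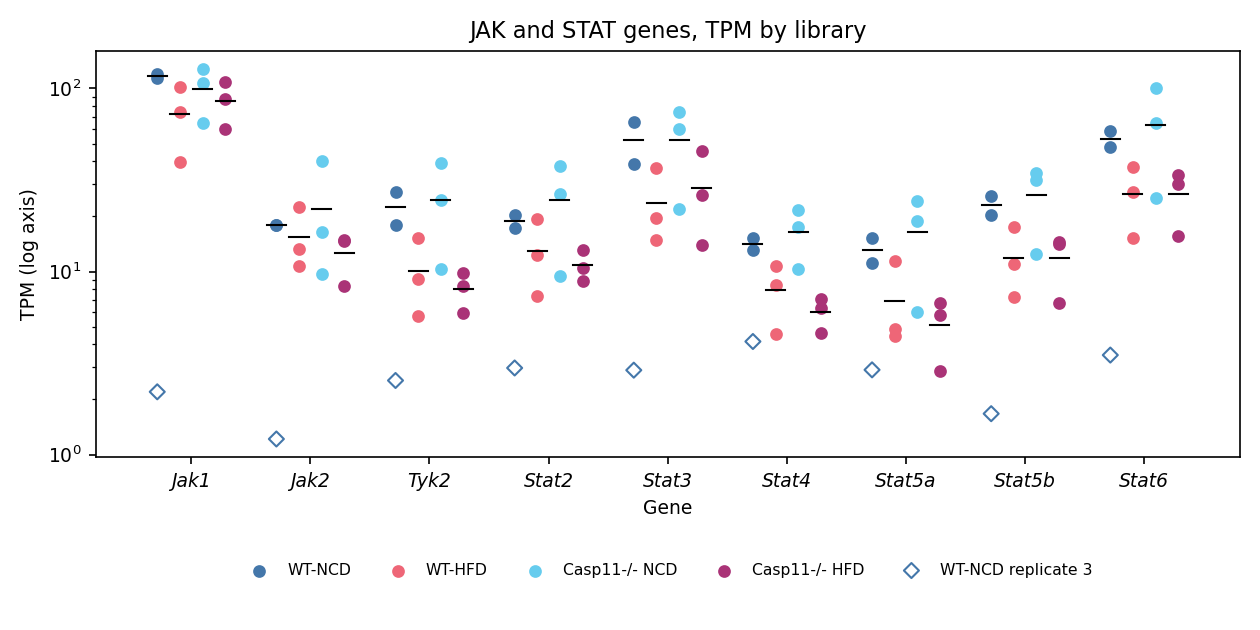
TPM of the 9 genes in each library on a log axis, with 1 point per mouse coloured by group and an open diamond for WT-NCD replicate 3. Jak1 was highest in all 11 other libraries, and WT-NCD replicate 3 lay at 1.22 to 4.15 TPM for every gene.

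The comparison of HFD with NCD over both genotypes asks whether the diet moved the pathway. With all 12 libraries, 0 of the 9 genes passed an adjusted p of 0.05 (limma, Benjamini-Hochberg over 19498 genes) and 0 had an unadjusted p under 0.05. Over all genes 0.554% passed and 16.8% had an unadjusted p under 0.05. Of the differences 7 were negative and 2 positive, Jak1 at 0.36 ± 0.82 (SE) and Jak2 at 0.10 on the log2 scale, and the smallest adjusted p was 0.307, for Stat4. The median over all genes was -0.61. Without WT-NCD replicate 3, all 9 differences were negative, and Tyk2, Stat4 and Stat5a passed. In that fit 18.3% of 17950 genes passed and 17.3% passed as lower, so a call there is common, and 6 of the 9 had an unadjusted p under 0.05, against 36.8% of all genes. The median of all genes was -0.39. With the protein-coding genes rescaled as well, 0 of the 9 passed against 13.7% of 12368 genes, and 2 had an unadjusted p under 0.05, against 34.1%.

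Tyk2 was listed at 17.9, 27.2 and 2.54 TPM in WT-NCD, 9.15, 5.75 and 15.3 in WT-HFD, 24.6, 10.3 and 39.2 in Casp11-/- NCD and 5.90, 8.31 and 9.87 in Casp11-/- HFD. Without WT-NCD replicate 3 the 5 NCD libraries averaged 23.9 ± 10.8 TPM (SD) and the 6 HFD libraries 9.05 ± 3.50, and Casp11-/- NCD replicate 2 was the 1 NCD library that lay among the HFD libraries. The log2 difference was -1.25 ± 0.38 (SE, limma adjusted p = 0.0301), and after rescaling -0.64 ± 0.23 (adjusted p = 0.0757).

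Stat4 was listed at 13.1, 15.3 and 4.15 TPM in WT-NCD, 8.45, 4.54 and 10.7 in WT-HFD, 17.4, 10.3 and 21.7 in Casp11-/- NCD and 4.60, 6.34 and 7.12 in Casp11-/- HFD. Apart from WT-NCD replicate 3, WT-HFD replicate 3 was the only HFD library above an NCD library, Casp11-/- NCD replicate 2. The means were 15.6 ± 4.35 TPM (SD, n = 5) on NCD and 6.96 ± 2.37 (SD, n = 6) on HFD, the log2 difference -1.05 ± 0.35 (SE, limma adjusted p = 0.0414) and the rescaled difference -0.45 ± 0.18 (adjusted p = 0.0922).

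Stat5a, a factor of GM-CSF and interleukin-2 family receptors, was listed at 11.1, 15.2 and 2.90 TPM in WT-NCD, 4.85, 4.44 and 11.4 in WT-HFD, 18.96, 6.04 and 24.2 in Casp11-/- NCD and 2.88, 6.70 and 5.78 in Casp11-/- HFD. Apart from WT-NCD replicate 3, WT-HFD replicate 3 lay above WT-NCD replicate 1 and Casp11-/- NCD replicate 2. Casp11-/- HFD replicate 2 also lay above Casp11-/- NCD replicate 2. Its mean was 15.1 ± 6.99 TPM (SD, n = 5) on NCD and 6.01 ± 2.95 (SD, n = 6) on HFD, with a log2 difference of -1.15 ± 0.40 (SE, limma adjusted p = 0.0452) that was -0.56 ± 0.27 after rescaling (adjusted p = 0.154).

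The other 4 STAT genes had differences of similar size that did not pass in the fit without WT-NCD replicate 3. Stat6 averaged 59.3 ± 27.5 TPM on NCD and 26.6 ± 9.26 on HFD (log2 difference -1.07, limma adjusted p = 0.0552). Stat5b averaged 25.01 ± 8.93 and 11.9 ± 4.30 TPM (-1.001, limma adjusted p = 0.0603), and Stat3 52.1 ± 21.3 and 26.2 ± 12.7 TPM (-0.99, limma adjusted p = 0.0798). Stat2 averaged 22.4 ± 10.6 and 11.9 ± 4.19 TPM (-0.77, limma adjusted p = 0.144). After rescaling these 4 differences lay between -0.42 and -0.14, with adjusted p from 0.233 to 0.684. Jak1 and Jak2 were the nearest to 0 of the 9. Jak1 averaged 107 ± 24.5 TPM on NCD and 78.6 ± 26.1 on HFD (-0.50 ± 0.36, limma adjusted p = 0.291), and its rescaled difference was 0.16 ± 0.21. Jak2 was listed at 17.8, 17.9 and 1.22 TPM in WT-NCD, 13.3, 10.7 and 22.5 in WT-HFD, 16.5, 9.675 and 39.9 in Casp11-/- NCD and 8.30, 14.7 and 14.9 in Casp11-/- HFD. Its difference was -0.41 ± 0.38 (limma adjusted p = 0.399) and after rescaling 0.21 ± 0.24, so the sign for both kinases depended on the scaling and no direction is given for them. For none of the 9 genes did the TPM of all HFD libraries lie on one side of all NCD libraries, with WT-NCD replicate 3 or without it. Over all genes, 2.41% lay wholly below and 0.231% wholly above with 12 libraries, and 5.6% and 0.39% with 11. After rescaling these shares were 4.25% and 3.88%, and the 9 genes again overlapped. Rescaled Stat4 came near to separation, at 10.6 to 14.2 on NCD and 6.62 to 11.7 on HFD, whereas rescaled Jak1 was at 80.1 to 97.2 on NCD and 69.5 to 130.4 on HFD.

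**Figure D2:**
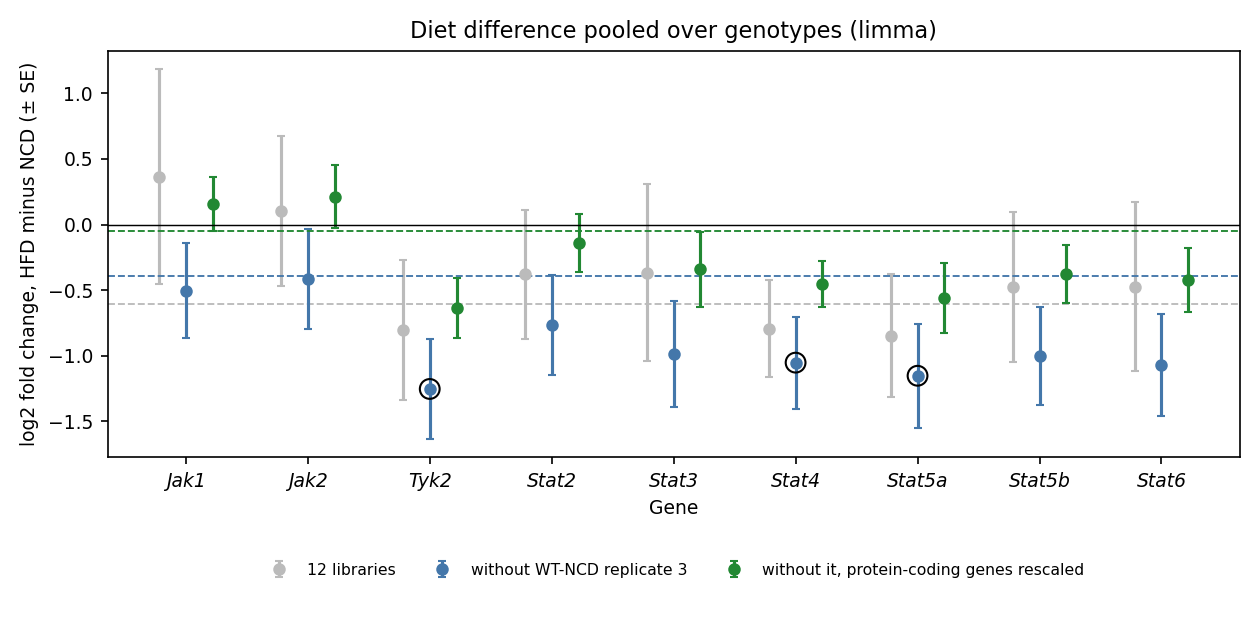
Log2 difference between HFD and NCD (± SE) for each gene from limma with 12 libraries, without WT-NCD replicate 3, and without it after rescaling protein-coding genes. Dashed lines are the median of all genes in the same fit and black circles mark an adjusted p under 0.05, which Tyk2, Stat4 and Stat5a reached in the 11-library fit only.

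The make-up of the pathway within a library does not depend on its total. Each gene was therefore set against the mean log2(TPM) of the 9 genes in its own library. These positions were examined after the values had been seen and are given without a test. Tyk2 lay 0.48 to 0.19 below that mean in the 5 NCD libraries and 1.01 to 0.60 below it in the 6 HFD libraries, with averages of -0.36 ± 0.14 and -0.73 ± 0.15 (SD). Its HFD libraries lay wholly below its NCD libraries, WT-NCD replicate 3 included, a pattern that 1.55% of all genes had on the same scale with 12 libraries and 2.11% with 11. Jak2 lay wholly the other way, at -1.005 to -0.22 on NCD and -0.19 to 0.18 on HFD, with a gap of only a few hundredths between the nearest libraries, a difference of 0.53 in the means, and WT-NCD replicate 3 fell below its other NCD libraries. On that scale 1.02% of all genes lay wholly above with 12 libraries and 5.06% with 11. The 7 other genes overlapped between diets in the 11 libraries, with differences from -0.33 for Stat5a to 0.50 for Jak1.

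**Figure D3:**
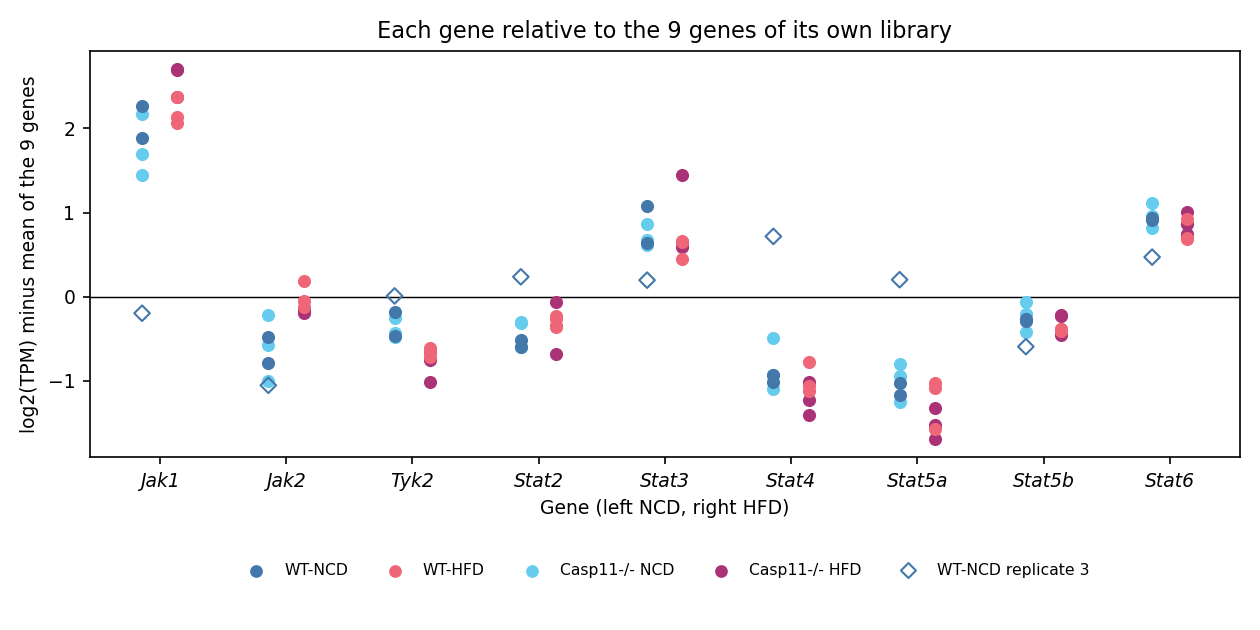
log2(TPM) of each gene minus the mean of the 9 genes in the same library, with NCD libraries on the left and HFD libraries on the right of each gene, coloured by group. Tyk2 was lower and Jak2 higher in every HFD library than in every NCD library, while Jak1 of WT-NCD replicate 3 (open diamond) lay below 0.

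Among the 3 kinases, Tyk2 took 11.6% and 17.04% of their summed TPM in WT-NCD replicates 1 and 2 and 42.6% in replicate 3, 9.41%, 10.3% and 10.9% in WT-HFD, 16.6%, 12.1% and 18.97% in Casp11-/- NCD, and 7.95%, 7.53% and 7.43% in Casp11-/- HFD. Without WT-NCD replicate 3 its share averaged 15.3% ± 3.24 (SD, n = 5) on NCD and 8.92% ± 1.503 (SD, n = 6) on HFD, with every HFD library below every NCD library. Relative to the same kinase total, 7.25% of all genes lay wholly below on HFD and 2.4% wholly above, and Stat5b was the only other member among them. Jak1 took 61.7% to 76.9% on NCD and 70.5% to 81.4% on HFD, which overlap.

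Within HFD the genotypes also separated in this kinase make-up. Jak1 held 79.1% to 81.4% in Casp11-/- HFD and 70.5% to 76.9% in WT-HFD. Jak2 held 11.2% to 13.4% against 13.7% to 19.2%, and Tyk2 7.43% to 7.95% against 9.41% to 10.9%. All 3 shares were free of overlap between the groups of 3 mice, and Stat2 and Stat4 also lay wholly lower in Casp11-/- HFD relative to the summed kinases. Because the shares sum to 100% they are not separate results, and relative to the kinase total 10.4% of all genes lay wholly below and 1.1% wholly above in the same comparison. These shares were likewise seen before they were chosen and carry no test. The shares of each STAT gene in the summed TPM of the 6 STAT genes overlapped between diets.

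Ratios of neighbouring or paired members were tested with an exact permutation test of the diet within each genotype, two-sided, on log2(TPM + 1), over 400 splits with 12 libraries and 200 without WT-NCD replicate 3, for both of which the smallest possible p is 0.005. The log2 ratio of Stat5b to Stat5a, the paralogs printed above, was higher on HFD by 0.37 with 12 libraries (exact permutation p = 0.105, adjusted over the 3 ratios 0.315) and by 0.15 without WT-NCD replicate 3 (exact p = 0.255, adjusted 0.715). Without that library, the TPM of Stat5b was 1.44 to 2.06 times that of Stat5a on NCD and 1.53 to 2.46 times on HFD, and in WT-NCD replicate 3 it was 0.576 times. The ratio of Jak2 to Jak1 differed by -0.26 (exact permutation p = 0.555) with 12 libraries and by 0.089 (exact p = 0.715) without WT-NCD replicate 3, where it was 0.53 in WT and -0.36 in Casp11-/- mice. The ratio of Stat6 to Stat3, the factors of the interleukin-4 and interleukin-6 arms, differed by -0.11 (exact permutation p = 0.52) and without that library by -0.08 (exact p = 0.65). None of the 3 ratios passed in either set of libraries.

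Within each genotype, the diet comparison and the comparisons of genotypes within a diet, which address the role of caspase-11, gave 0 called members of 9 in each fit with 12 libraries, without WT-NCD replicate 3, and with rescaling without it. In WT mice 0.113% of all genes were called with 12 libraries, 0.809% after rescaling without WT-NCD replicate 3 and 2.18% without rescaling or that library, where the members' log2 differences lay between -1.16 for Tyk2 and -0.26 for Jak2 (smallest limma adjusted p = 0.332). With 12 libraries they lay between -0.32 and 0.94. In Casp11-/- mice 0 genes were called with 12 libraries, with 8.48% at an unadjusted p under 0.05. Without WT-NCD replicate 3, 1.1% were called, the members lay between -1.38 for Stat5a and -0.21 for Jak1, and the smallest limma adjusted p was 0.131, for Stat4. An unadjusted p under 0.05 was reached by 5 of the 9 and by 27% of all genes. After rescaling it was reached by 3 of the 9 and by 24.8% of all genes, of which 3.55% were called. In that fit Stat4 differed by -0.75 ± 0.23, Stat5a by -0.86 ± 0.35 and Tyk2 by -0.81 ± 0.30 (SE) in Casp11-/- mice, with limma adjusted p of 0.0891, 0.160 and 0.135. The same values in WT mice were -0.16 ± 0.26, -0.26 ± 0.39 and -0.46 ± 0.34.

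The difference between these diet effects was not detectable. With 12 libraries, the interaction of diet and genotype lay between -1.34 and -0.92 for the members (smallest limma adjusted p = 0.780). Without WT-NCD replicate 3 it lay between -0.45 and 0.58 (limma adjusted p = 0.9998 for each). After rescaling it lay between -0.60 and 0.42, and Stat4 differed by -0.59 ± 0.35 (limma adjusted p = 0.881). Over all genes the interaction called 0 with 12 libraries, with 0.79% at an unadjusted p under 0.05, 0.00557% without WT-NCD replicate 3, and 0 after rescaling, with 5.18% at an unadjusted p under 0.05.

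Between genotypes on NCD, all 9 members were listed higher in Casp11-/- mice with 12 libraries, by 0.67 to 1.45 on the log2 scale (smallest limma adjusted p = 0.553), and these values rest on WT-NCD replicate 3. Without it the members differed by -0.28 to 0.17 on NCD and by -0.32 to 0.30 on HFD, and each difference was smaller than its SE (0.52 to 0.60 on NCD and 0.47 to 0.54 on HFD). On HFD, limma called 0 of all genes in each of the 3 fits, with 0.154% at an unadjusted p under 0.05 with 12 libraries, 0.752% without WT-NCD replicate 3 and 2.51% after rescaling. On NCD it called 0 with 12 libraries, with 1.5% at an unadjusted p under 0.05, 0.0557% without WT-NCD replicate 3, and 0 after rescaling, with 3.82%.

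The cell make-up of the libraries moved with diet as well. Over the 11 libraries without WT-NCD replicate 3, the summed TPM of 9 B cell markers was 485 to 2047 on NCD and 151 to 343 on HFD, and 9 of 9 were called lower with or without rescaling. Of all genes, 17.3% were called lower without rescaling, and after it 775 of 12368 were called lower and 921 higher. The sum of NK cell markers was 307 to 654 on NCD and 101 to 189 on HFD in TPM. Rescaled NK cell sums overlapped, at 201 to 478 on NCD and 145 to 220 on HFD, with 5 of 8 markers called lower. Markers of Kupffer cells, the resident macrophages, summed to 50.1 to 144 on NCD and 268 to 889 on HFD, and 10 of 10 were called higher after rescaling. Markers of erythroid cells, which the lysis step was to remove, summed to 865 to 18022 on NCD and 279 to 764 on HFD in TPM. Rescaled erythroid sums overlapped (704 to 11785 against 487 to 862), with 4 of 5 tested markers called lower. The sum of sinusoidal endothelial markers was 96.97 to 444 on NCD and 208 to 1143 on HFD in TPM, and 73.0 to 362 against 367 to 1378 after rescaling. Stellate cell markers overlapped in TPM and summed to 12.2 to 22.2 on NCD and 27.3 to 70.6 on HFD after rescaling. T cell markers (146 to 624 against 86.3 to 256) and hepatocyte markers (6692 to 23953 against 9416 to 18867) overlapped. Hepatocytes were to be separated off by the Percoll step, so their transcripts were still present on both diets. Monocyte (345 to 1935 against 339 to 749) and neutrophil markers (302 to 1016 against 116 to 4456) overlapped as well. Dendritic cell (47.1 to 222 against 65.5 to 218) and cholangiocyte markers (7.61 to 88.5 against 4.07 to 37.1) overlapped too. No marker of any list lay at the lowest value in all 11 libraries. Over these libraries the rescaled log2 level of Tyk2 had a correlation of 0.84 with the B cell sum, Stat4 of 0.80 and Stat5a of 0.70, and Jak1 of -0.17. Tyk2 and Stat4 had correlations of 0.76 and 0.72 with the erythroid sum and of -0.84 and -0.81 with the stellate sum. The hepatocyte sum had correlations of -0.85 with Tyk2, -0.88 with Stat2 and -0.71 with Stat4, and the sinusoidal endothelial sum of 0.66 with Jak1. Stat3 had correlations of 0.67 with the neutrophil sum, 0.65 with the monocyte sum, -0.67 with the stellate sum and -0.64 with the hepatocyte sum. These describe 11 points that share diet and library, and the part of the cell make-up in the members' differences was not tested.

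Among themselves, Tyk2, Stat2, Stat4, Stat5a, Stat5b and Stat6 had correlations of 0.65 to 0.94 over these 11 libraries after rescaling. The highest were 0.94 between Stat5b and Stat6, 0.93 between Stat5a and Stat5b, 0.91 between Tyk2 and Stat5a and 0.90 between Stat5a and Stat6, and Tyk2 had 0.88 with Stat6 and 0.87 with Stat4. Jak1 was apart from the rest, from -0.16 with Stat4 to 0.31 with Jak2. The median correlation over 9353 protein-coding genes was 0.46 for Tyk2, 0.51 for Stat2, 0.45 for Stat5a and 0.41 for Stat6, but 0.014 for Jak1 and 0.25 for Jak2. The share of these genes with a correlation over 0.9 was 5.56% for Tyk2, 3.49% for Stat6, 2.23% for Stat5a and 1.28% for Stat2. They are descriptions over libraries that share their diet, scaling and cell make-up, and part of the Stat5a and Stat5b value may be shared reads.

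**Figure D4:**
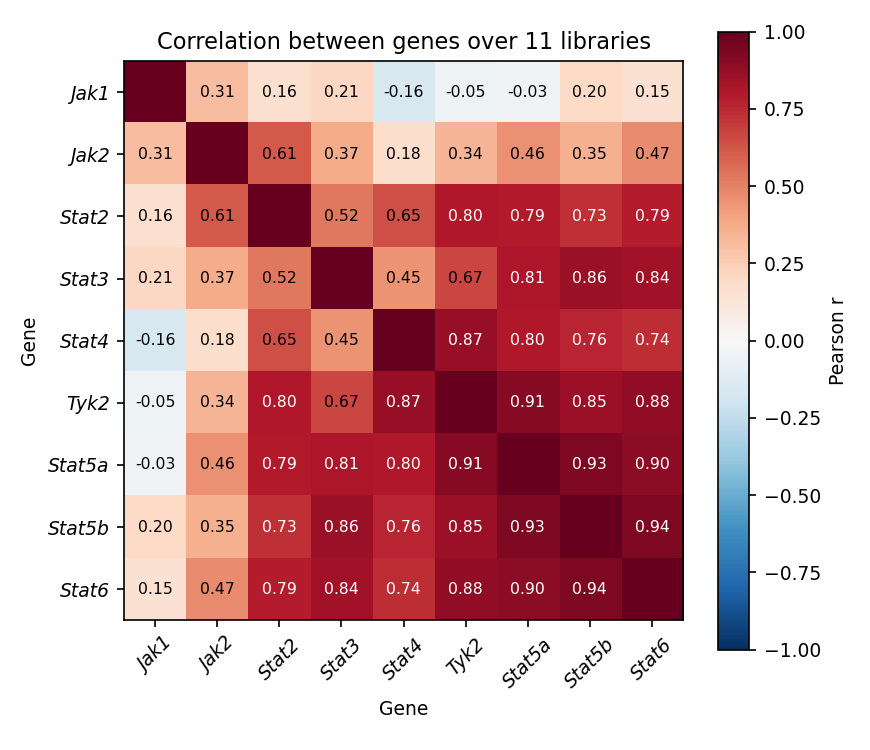
Pearson correlation of log2(TPM + 1) after rescaling, between each pair of the 9 genes over 11 libraries. The block from Stat2 to Stat6 ranges up to 0.94, while the row of Jak1 lies between -0.16 and 0.31.

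The genes of most similar pattern differed for each kinase. For Jak1 they included Ap1b1, a subunit of a clathrin adaptor (correlation 0.93), and Pecam1, an adhesion molecule of endothelial cells (0.93). For Jak2 they were Zyg11b (0.96), Zfyve16 (0.96) and Wapl, the cohesin release factor (0.95). For Tyk2 they were Wdr3 (0.98), Cnot3, of the deadenylase complex (0.97), and Mllt6 (0.97). Among the STAT genes, Stat5a was closest to Ago2, the slicing Argonaute (0.98), Stat5b to Fbxo38 (0.98), Stat6 to Sin3a, a corepressor scaffold (0.98), and Stat2 to Tnpo3, a nuclear import factor (0.98). Stat3 was closest to Zyx, a focal adhesion protein (0.97), and Stat4 to Bcat2, a mitochondrial transaminase (0.96).

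The other genes of the pathway were taken from 7 lists. With 12 libraries 0 genes of these lists passed for diet, and the listed genes named below had limma adjusted p from 0.162 to 0.719 in that fit. Among the receptors that signal through these kinases, the direction of the calls changed with the scaling. Without WT-NCD replicate 3, 9 of 33 were lower and 1 higher on HFD, and after rescaling 1 was lower and 6 were higher, against 17.3% of all genes called lower in the first of these fits and 13.7% called in either direction in the second. The list's median was -0.66, and after rescaling -0.09, beside -0.39 and -0.05 for all genes. Il21r, the interleukin-21 receptor of B cells and NK cells, was lower in both fits, with 18.3 to 68.4 TPM on NCD and 7.58 to 19.3 on HFD (log2 difference -1.96, limma adjusted p = 0.00173, and after rescaling -1.32, adjusted p = 0.00608). Osmr, the oncostatin M receptor, was higher in both, with 1.01 to 3.71 TPM on NCD and 3.37 to 11.3 on HFD (1.19, limma adjusted p = 0.0307, and 1.70, adjusted p = 0.00341). Only these 2 receptor genes passed in both fits.

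The shared beta and gamma chains of the interleukin-2 family, Il2rb and Il2rg, passed as lower before rescaling and missed the threshold after it. Il2rb was at 49.2 to 160 TPM on NCD and 21.96 to 58.5 on HFD (-1.39, limma adjusted p = 0.0208, rescaled -0.74, adjusted p = 0.107), and Il2rg at 95.3 to 357 and 66.3 to 176 TPM (-1.45, limma adjusted p = 0.0213, rescaled -0.78, adjusted p = 0.0652). The interleukin-5 receptor Il5ra (-1.09, limma adjusted p = 0.0238) and the interleukin-9 receptor Il9r (-0.66, limma adjusted p = 0.0366) also passed as lower before rescaling alone. Both were near the lowest listed value on HFD, at 1.01 to 1.74 TPM for Il5ra and 1.01 to 1.08 for Il9r. Il5ra lay at that value in 4 of 11 libraries and Il9r in 6. Of the 6 receptor genes called higher after rescaling, 5 had not passed before it. Il6st, the signal chain gp130 of the interleukin-6 family, was at 28.8 to 63.0 TPM on NCD and 42.7 to 141 on HFD (0.67, limma adjusted p = 0.184, rescaled 1.32, adjusted p = 0.00970), and Lifr, the leukemia inhibitory factor receptor, at 17.8 to 51.9 and 41.7 to 98.9 TPM (0.78, limma adjusted p = 0.124, rescaled 1.43, adjusted p = 0.0198). Il13ra1, the partner of the interleukin-4 receptor, was at 9.73 to 32.96 and 21.9 to 43.1 TPM (0.73, limma adjusted p = 0.167, rescaled 1.37, adjusted p = 0.00990). The leptin receptor Lepr, at 1.01 to 1.16 TPM on NCD and 1.01 to 6.09 on HFD, lay at the lowest listed value in 5 of 11 libraries (0.63, limma adjusted p = 0.0503, rescaled 1.01, adjusted p = 0.0146). Rescaling raised that lowest value more on HFD than on NCD on average, so part of the rescaled Lepr difference comes from the rescaling itself.

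**Figure D5:**
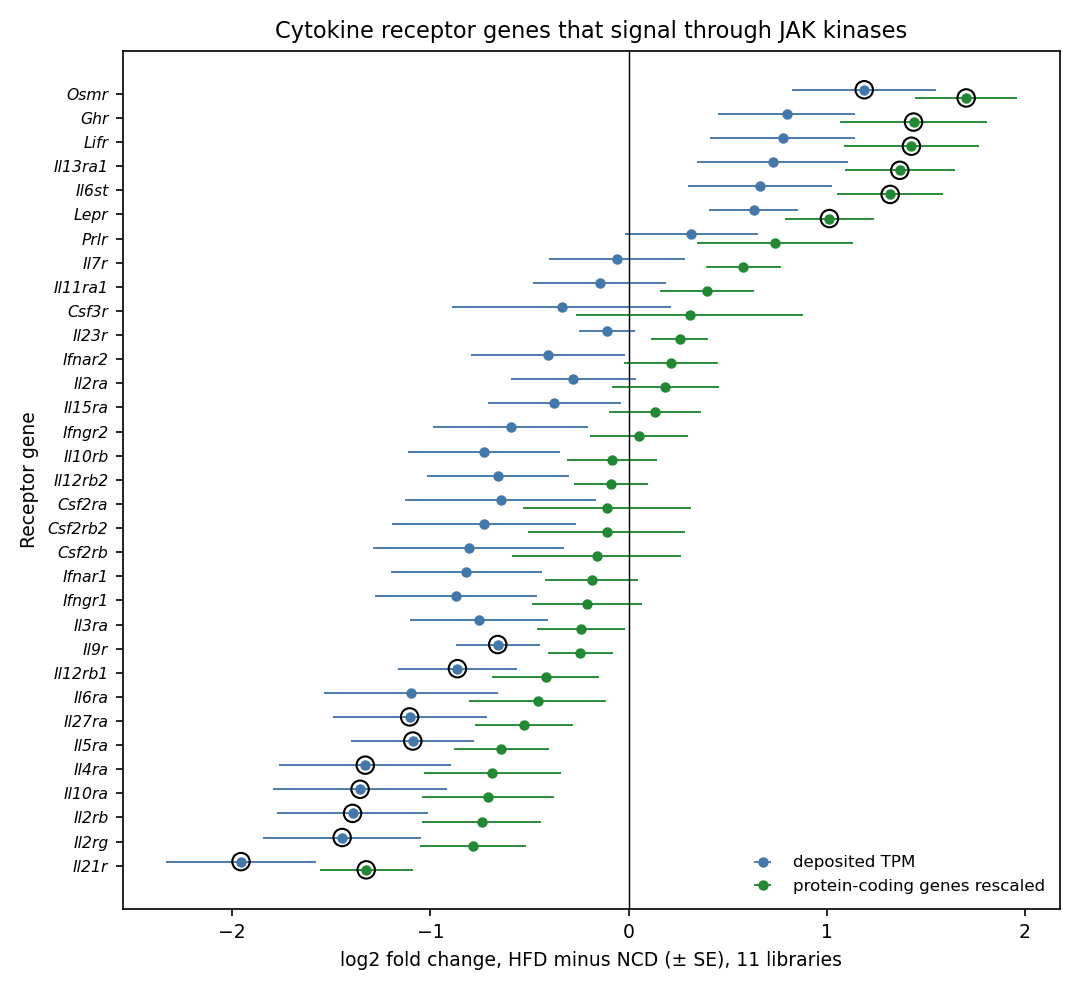
Log2 difference between HFD and NCD (± SE) of 33 receptor genes over 11 libraries, from deposited TPM and after rescaling protein-coding genes, ordered by the rescaled difference. Black circles mark a limma adjusted p under 0.05, which Il21r at the low end and Osmr at the high end reached on both scales.

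Of 21 ligand genes on the list, 9 were measured well enough to be tested without WT-NCD replicate 3. The interleukin-12 subunit gene Il12a (-1.001, limma adjusted p = 0.0168) and Ifng, interferon-gamma (-1.51, limma adjusted p = 0.0190), were lower, and missed the threshold after rescaling (-0.56, adjusted p = 0.0707, and -0.96, adjusted p = 0.0539). Il12a lay at the lowest listed value in 5 of 11 libraries, with 1.16 to 6.40 TPM on NCD and 1.01 to 1.59 on HFD. Il15, a survival factor of NK cells, passed only after rescaling (0.32, limma adjusted p = 0.478, rescaled 0.82, adjusted p = 0.0412). Its TPM was low and overlapped, at 1.27 to 5.95 on NCD and 1.30 to 6.30 on HFD.

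Of 20 inhibitors, 5 were lower and 0 higher without WT-NCD replicate 3, against 17.3% of all genes called lower, and 0 passed after rescaling, against 13.7%. Their medians were -0.69 and -0.08. The 5 lower before rescaling were the phosphatase genes Ptpn6, which encodes SHP-1 (-1.60, limma adjusted p = 0.0201), and Ptpn1 (-1.23, limma adjusted p = 0.0480), the SUMO ligase gene Pias4 (-1.24, limma adjusted p = 0.0292), the adaptor gene Sh2b3 (-1.26, limma adjusted p = 0.0331) and Socs1, the feedback inhibitor of interferon signals (-1.15, limma adjusted p = 0.0381). Of 8 partners, the kinase adaptor Sh2b1 was lower in both fits (-1.40, limma adjusted p = 0.0186, rescaled -0.81, adjusted p = 0.0282). The acetyltransferase genes Ep300 and Crebbp, coactivators of STAT proteins, passed as lower before rescaling (-1.19 and -1.18, limma adjusted p = 0.0432 and 0.0484) and not after it (-0.54 and -0.53, adjusted p = 0.168 and 0.198).

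Known targets of the STAT factors were listed by factor. Of 12 STAT3 and STAT5 targets, 4 were lower and 0 higher without WT-NCD replicate 3, and 2 were lower after rescaling, against 17.3% of all genes called lower and then 13.7% called in either direction. The list medians were -0.90 and -0.29, beside -0.39 and -0.05 for all genes. The survival kinase gene Pim2 was at 7.56 to 31.3 TPM on NCD and 4.49 to 7.71 on HFD (-1.74, limma adjusted p = 0.00378, rescaled -1.13, adjusted p = 0.0121), and Pim1 at 40.2 to 162 and 13.1 to 55.2 TPM (-1.69, limma adjusted p = 0.0103, rescaled -1.04, adjusted p = 0.0373). Junb and Bcl3 passed as lower before rescaling alone (-1.47 and -1.30, limma adjusted p = 0.0297 and 0.0442). The 6 STAT4 targets had medians of -1.13 and -0.53 in the same fits, for which the shares of all genes called are those just given. Without WT-NCD replicate 3, 3 were lower, Ifng among them. After rescaling 2 were lower: Gzmb, the cytotoxic protease granzyme B (34.6 to 136 TPM on NCD and 12.6 to 26.1 on HFD, rescaled -1.10, limma adjusted p = 0.0404), and Tbx21, which encodes T-bet (rescaled -0.92, limma adjusted p = 0.0494). Both are also abundant in NK cells. Tbx21 is itself among the NK cell markers given above, whose sum was lower on HFD in TPM and overlapped after rescaling.

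The 11 STAT6 targets moved both ways. The low-affinity IgE receptor gene Fcer2a was at 23.0 to 123 TPM on NCD and 6.47 to 16.9 on HFD (-2.41, limma adjusted p = 0.000427, rescaled -1.78, adjusted p = 0.00507), and Irf4, a factor of B cell and macrophage differentiation, at 14.5 to 129 and 4.86 to 18.3 TPM (-2.62, limma adjusted p = 0.000441, rescaled -1.98, adjusted p = 0.00813). The mannose receptor gene Mrc1, on the other hand, was at 5.96 to 41.3 TPM on NCD and 44.6 to 158 on HFD (1.71, limma adjusted p = 0.0151, rescaled 2.35, adjusted p = 0.00778), with every HFD library above every NCD library. Ccl24, a chemokine for eosinophils, was also higher (1.08, limma adjusted p = 0.0261, rescaled 1.51, adjusted p = 0.00813). It was at 1.01 to 1.80 TPM on NCD and 1.26 to 11.3 on HFD, and at 9.71 in WT-NCD replicate 3. Ccl17 was lower before rescaling alone (-0.61, limma adjusted p = 0.0366), at 1.01 to 4.57 and 1.01 to 2.20 TPM. Ccl24 and Ccl17 each lay at the lowest listed value in 4 of 11 libraries. Fcer2a is expressed by B cells and counts among their markers, whose sum was lower on HFD. Mrc1 is expressed by Kupffer cells, whose sum was higher, and by sinusoidal endothelial cells, whose sum overlapped between diets in TPM. Their part in these differences was not tested. Within WT mice without WT-NCD replicate 3, Fcer2a (-2.41, limma adjusted p = 0.0318), Irf4 (-2.61, limma adjusted p = 0.0327) and the cytokine gene Osm, oncostatin M (-2.54, limma adjusted p = 0.0486), were lower on HFD. In Casp11-/- mice in the same fit, Fcer2a (-2.42, limma adjusted p = 0.0283) and Irf4 (-2.63, limma adjusted p = 0.0283) were lower as well. After rescaling, 0 genes of the lists passed in WT mice. In Casp11-/- mice Il21r, Fcer2a and Irf4 then passed as lower and Osmr, Il6st, Lepr and Mrc1 as higher, and none of them passed in the interaction. In the interaction and between genotypes within a diet, 0 genes of these lists passed in the 3 fits.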

How the data were processed

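The values are TPM that the authors made by aligning single-end reads with STAR (mm10) and importing the alignments into Qlucore Omics Explorer. As deposited they are treated as a score, because they rest on a floor of 1.01 and summed to 1000353 to 1022495 per library. The floor is not described in the sources used here. Depth is unknown, so counting error could not be given and precision rests on 3 mice per group. Groups were compared with limma 3.58.1 (R 4.3.3) on log2(TPM + 1), with a mean-dependent spread shared by the 4 groups, two-sided, with Benjamini-Hochberg adjustment. Genes had to exceed the floor in 3 or more libraries, which 19498 did. Fold changes of low genes are understated on this scale. RefSeq gave 21702 of 39350 matched genes as protein-coding, and these were rescaled to a common total as an alternative. They held 15.7% to 25.2% of TPM in the HFD libraries and 22.3% to 42.4% in the NCD libraries other than WT-NCD replicate 3. Values at the floor were multiplied as well, so a gene at the floor on both diets comes out higher on HFD after rescaling. Correlations used the 11 libraries without WT-NCD replicate 3. A gene of similar pattern to Jak1 is not reported here.

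The members and gene lists were chosen with earlier results of these data known, so they are no independent evidence. Named pathway genes were at most the 5 of smallest p in each direction per list and comparison. Nothing in the labels ties mice of equal replicate number, so the numbers were not used as pairs. Deviations of such pairs of libraries had correlations over 0.1 in 7 of 18 pairs with 12 libraries and in 8 of 15 without WT-NCD replicate 3. On simulated data of 17949 genes, the pooled diet comparison recovered 17 of 100 genes changed by a log2 difference of 1. It recovered 91 of 100 changed by 2, with 2 unchanged genes among 110 calls. These counts hold for the simulated spread only. They do not give the power or false-call rate of the real fits, with WT-NCD replicate 3 or without it. Tables and figures were made in Python 3.11.15 (numpy 2.4.6, pandas 2.3.3, matplotlib 3.10.9, SciPy 1.17.1).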

Additional observations from a re-analysis of the deposited data

How the results depend on the processing

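The number of genes called for diet over both genotypes was 108 and moved with almost every setting: 601 among genes above the floor in every library, 455 after rescaling protein-coding genes, 10 without the 1% of genes of highest mean, 4719 with limma array weights, 1696 with rescaling and without WT-NCD replicate 3, 1444 with the filter in every library added to these, and 1 to 3289 with each library left out in turn, the highest without WT-NCD replicate 3, with 1454 without Casp11-/- NCD replicate 2. With the replicate block it was 16, 6709 with the block and without WT-NCD replicate 3, and 2863 with rescaling added to these. The labels do not say that replicate numbers pair the mice, and no call rests on the block.

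Members called for diet were 0, and 0 to 3 with each library left out, the 3 without WT-NCD replicate 3. They were 3 with array weights, 7 with the replicate block and without WT-NCD replicate 3 and 2 with rescaling added. With rescaling and without WT-NCD replicate 3, leaving out WT-HFD replicate 3 gave 1 (Tyk2), and leaving out Casp11-/- NCD replicate 2 gave 2 (Tyk2 and Stat5a) and 3 in Casp11-/- HFD against NCD (with Stat4). Array weights called 8 members in WT-HFD against WT-NCD and 1 in Casp11-/- HFD against WT-HFD. In the pooled fits with array weights and with the block, the calls among all genes rose as well, as given above. The share of all genes called is not given for the other fits of this paragraph. These counts are therefore not read as results about the members. The cause of these changes was not tested.

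The sign turned for these pooled log2 differences. Jak1 was -0.62 with the block and without WT-NCD replicate 3, -0.39 with array weights and -0.50 to 0.80 with each library left out. Jak2 was -0.57, -0.50 and -0.41 to 0.36 in the same order, with -0.04 without WT-HFD replicate 3 and -0.12 without Casp11-/- NCD replicate 2. After rescaling with 12 libraries Stat2 was 0.059, Stat3 0.088, Crebbp 0.064 and Ep300 0.024. Without the 1% of highest genes Stat2 was 0.44, Stat3 0.46, Stat4 0.010, Stat5b 0.29, Stat6 0.37, Crebbp 0.35, Ep300 0.33, Il2rb 0.21, Ptpn1 0.18 and Sh2b3 0.082, where the median of all genes was 0.11, against -0.10 after rescaling and -0.61 as deposited. Stat3 was -0.99 to 0.034 with each library left out, the highest without WT-NCD replicate 2. The log2 ratio of Jak2 to Jak1 differed by -0.45 to 0.089 with each library left out, and by 0.070 without a pseudocount and without WT-NCD replicate 3. Tyk2 ranged from -1.40 to -0.017 and Stat5a from -1.29 to -0.079 over all settings run, so their size depended on the setting even where the sign did not turn. Unknown depth and 3 mice per group limit what could be detected.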
